A study of Mus musculus with 12 samples.

Results

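Horizontal cells are a small class of retinal interneuron, and 5 genes used to recognise them, Onecut1, Onecut2, Lhx1, Calb1 and Prox1, were examined in RNA of whole mouse retina. The 5 were matched by exact name among the 55487 genes of the table of FPKM values (sequenced fragments scaled for transcript length and library size), and all 5 were present. The table held 12 libraries, 2 for each of 6 groups, made from poly(A) RNA of more than 3 pooled retinas per library. WT retinas came from C57BL/6J mice, JNK3 KO retinas from Jnk3-/- mice with a germline loss of the kinase gene Mapk10, and shPax6 retinas from mice infected with an AAV2.7m8 vector carrying pU6-shPax6-GFP, a short hairpin against the transcription factor Pax6 under the ubiquitous U6 promoter. Each kind of retina received an intravitreal injection of 1 μL of PBS or of 1 μL of 40 mM NMDA, which is 40 nmol, a glutamate receptor agonist that injures inner retinal neurons. No shScramble library was analysed here, so infection with the vector and loss of Pax6 cannot be told apart. The study's text gives 2 months as the age of the mice that received the vector, and the labels give no ages.

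The 5 genes lie on 5 chromosomes of GRCm38 and are all annotated as protein coding. Onecut1 lies at chr9:74861921-74891781 on the plus strand, Onecut2 at chr18:64340020-64400987 on the plus strand, Lhx1 at chr11:84518284-84525535 on the minus strand, Calb1 at chr4:15881264-15908064 on the plus strand and Prox1 at chr1:190118035-190170714 on the minus strand. Their spliced lengths were 4113 bases for Onecut1, 16234 for Onecut2, 4072 for Lhx1, 4846 for Calb1 and 8390 for Prox1, so all 5 fell among the genes over 4 kb. The exons of Onecut1 shared 2171 bases with Gm20649, a lincRNA of the same strand listed at 0 to 1.22 FPKM, and those of Prox1 shared 133 bases with the antisense gene Prox1os, listed at 3.06 to 12.03 FPKM. Reads of the bases shared by Onecut1 and Gm20649 could be divided between them whatever the strand setting of the libraries. That setting was not given in the sources used here, so reads could also be divided between Prox1 and Prox1os.

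Horizontal cells sit at the outer edge of the inner nuclear layer, contact the terminals of rods and cones, and feed inhibition back onto them. Their fate is set by Foxn4 and Ptf1a, after which Onecut1 and Onecut2, Prox1 and Lhx1 act in the commitment, maintenance and placement of the cells, and Calb1 encodes calbindin, a calcium buffer that fills the mature cell and is the usual stain for it. Prox1, Calb1, Onecut1 and Onecut2 are not exclusive to horizontal cells in the mouse. Prox1 is also found in AII amacrine, bipolar and Müller glial cells, and Calb1 in amacrine and ganglion cells. Onecut1 and Onecut2 are also found in some ganglion cells. In whole retina, fewer cells of a type and less RNA per cell cannot be told apart.

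The sequences upstream of the start are printed for Onecut1, Lhx1 and Prox1, because these 3 transcription factor genes had the largest falls after NMDA in WT and a RefSeq promoter entry on GRCm38.p6. The printed stretches are chr9:74861671-74861920 (plus strand, 250 bases) for Onecut1, chr11:84525536-84525659 (minus strand, 124 bases free of annotated exons) for Lhx1 and chr1:190170828-190171077 (minus strand, 250 bases) for the first of 2 RefSeq starts of Prox1. Capitals mark matches to TGACGTC, the core that ATF and CREB family factors and JUN heterodimers with ATF2 are known to bind, read on either strand.
Onecut1: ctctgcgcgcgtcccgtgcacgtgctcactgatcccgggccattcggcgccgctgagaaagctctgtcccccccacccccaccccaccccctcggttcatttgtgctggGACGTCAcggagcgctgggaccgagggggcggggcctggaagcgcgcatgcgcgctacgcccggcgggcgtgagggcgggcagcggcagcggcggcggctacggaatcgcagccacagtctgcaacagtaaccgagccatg
Lhx1: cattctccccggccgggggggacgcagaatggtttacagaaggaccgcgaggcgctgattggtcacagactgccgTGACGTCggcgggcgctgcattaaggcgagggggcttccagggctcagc
Prox1: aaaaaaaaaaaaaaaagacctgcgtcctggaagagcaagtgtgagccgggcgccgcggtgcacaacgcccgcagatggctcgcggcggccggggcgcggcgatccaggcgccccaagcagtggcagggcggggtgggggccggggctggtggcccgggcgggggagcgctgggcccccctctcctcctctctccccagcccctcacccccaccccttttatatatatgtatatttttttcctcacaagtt

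One match stood in the Onecut1 window, with its first base 141 bases before the start, and 1 in the Lhx1 window, 50 bases before the start, while none was found in the Prox1 window. A match was present in 914 of 32851 RefSeq promoter windows of 250 bases, or 2.78%. The other letters searched on both strands were ATCAAT and ATCGAT, which Onecut proteins bind (6.72% and 0.728% of windows), TAATTA, a core of LIM homeodomain proteins (4.84%), and TGANTCA, the AP-1 site (6.75%), and none of these was in the windows of the 3 genes. The motifs were picked after the sequences had been seen, and a match describes the letters only. Calb1 and Onecut2 are named here without a promoter sequence.

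The labels of the targeted genes were checked first. Pax6 had 173.48 and 177.3 FPKM under WT PBS against 92.84 to 94.56 FPKM under shPax6 PBS, a log2 difference of -0.90 (limma, adjusted p = 6.04e-05). Mapk10, which encodes JNK3, ran from 42.79 to 50.72 FPKM under WT PBS and from 8.75 to 9.47 under JNK3 KO PBS, lower but not 0. Under NMDA these RNAs did not separate the groups in this way. Pax6 had 55.42 and 53.81 FPKM in WT NMDA against 67.52 and 58.73 in shPax6 NMDA. Mapk10 had 8.98 and 6 FPKM in WT NMDA against 6.65 and 13.77 in JNK3 KO NMDA. In shPax6 PBS Mapk10 was at 20.86 and 21.33 FPKM, below WT PBS without a call (-1.14, limma adjusted p = 0.0634). The WT NMDA libraries stood apart: their FPKM summed to 805627 and 820180, against 541210 to 576922 in the other 10, and long genes were lower in them. FPKM are not counts and give no depth, so precision was taken from the replicates, whose median absolute log2 difference over genes was 0.112 to 0.252. The study describes its libraries as biological replicates, but which experiment each pool came from is not given, so p-values measure the spread between these pools.

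Prox1 and Calb1 were well above the filter of 1 FPKM in every library, Lhx1 lay near it, and Onecut1 and Onecut2 were low throughout. Over the 12 libraries Prox1 ranged from 5.57 to 27.48 FPKM, Calb1 from 5.72 to 20.65, Lhx1 from 0.16 to 2.95, Onecut1 from 0.08 to 1.63 and Onecut2 from 0.25 to 1.14 FPKM, all per length of transcript. All 5 passed the filter (1 or more group means over 1 FPKM), but Onecut2 passed only through the JNK3 KO NMDA group (mean 1.11 FPKM) and Onecut1 through that group and WT PBS. The changes of Onecut1, Onecut2 and Lhx1 therefore rest on values near the deposited rounding of 0.01 to a few FPKM, and a fold on the log2(FPKM + 0.1) scale used here understates a change of such low genes. The summed level of the 5 genes lay at 46.75 to 49.76 FPKM in WT PBS and 17.91 to 20.48 in WT NMDA, at 31.89 to 33.19 in shPax6 PBS and 20.81 to 21 in shPax6 NMDA, and at 38.12 to 40.18 in JNK3 KO PBS and 45.53 to 47.13 in JNK3 KO NMDA.

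**Figure D1:**
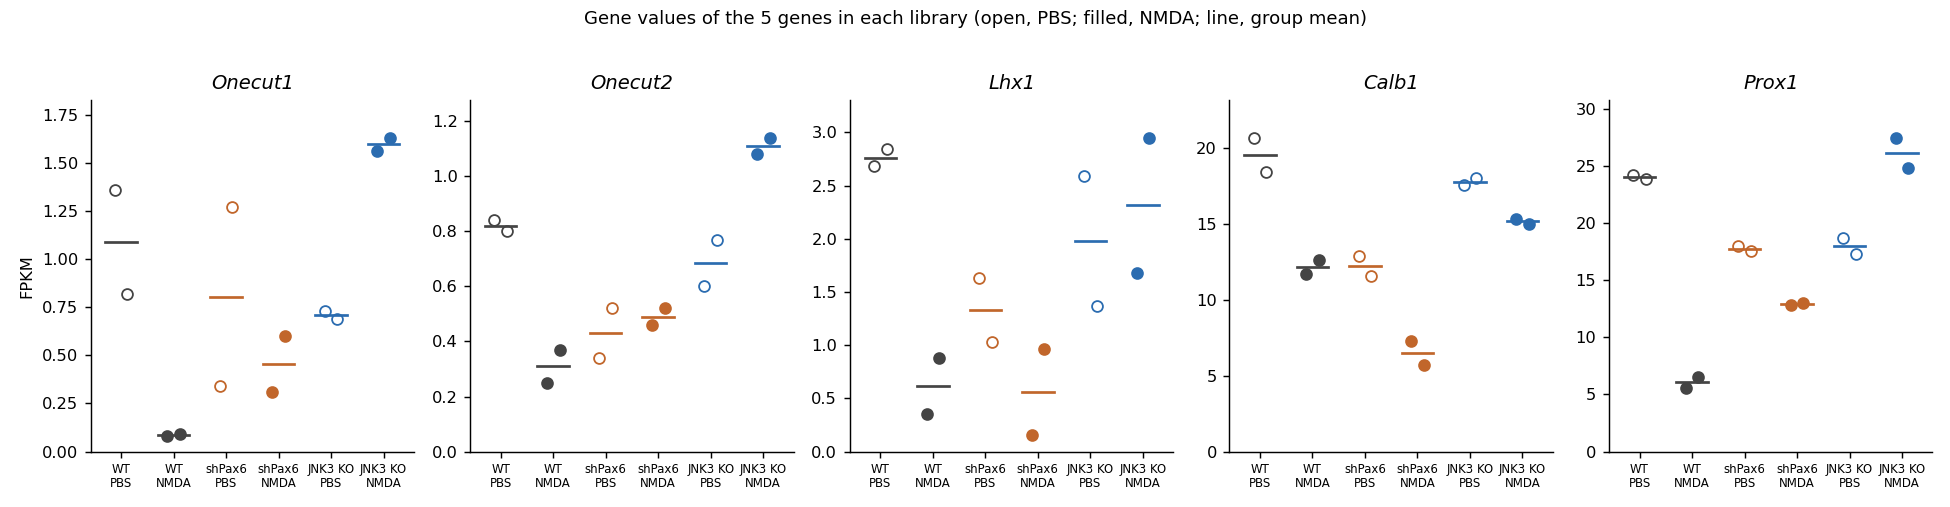
FPKM of the 5 genes in each of the 12 libraries, on linear axes that start at 0; each point is 1 library and each short line the mean of the 2 libraries of a group. Both WT NMDA libraries are below both WT PBS libraries for all 5 genes, and for Prox1, Onecut1 and Onecut2 both JNK3 KO NMDA libraries are above both JNK3 KO PBS libraries.

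The first question was how the genes responded to NMDA in WT retina. All 5 fell, by between 0.68 for Calb1 and 2.65 for Onecut1 on the log2 scale, and in each the 2 NMDA libraries lay below the 2 PBS libraries. In this comparison 59.8% of the 16471 genes tested were called at an adjusted p under 0.05 and 33.8% were called lower, so a call by itself was common. The share of all genes whose groups did not overlap was not counted, here or for the other comparisons. Of genes over 4 kb of spliced length, which include all 5, 72.7% had a lower estimate in WT NMDA.

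Onecut1, a homeodomain factor needed for the genesis of horizontal cells, was at 1.36 and 0.82 FPKM under PBS and at 0.08 and 0.09 FPKM under NMDA. The NMDA libraries were both close to 0 and the groups did not overlap. The log2 change was -2.65 (SE 0.574, 95% interval -3.95 to -1.35, limma adjusted p = 0.00313). Its paralogue Onecut2, which acts redundantly with it, was at 0.84 and 0.80 FPKM under PBS and 0.25 and 0.37 under NMDA, again without overlap. The change was -1.18 (SE 0.393, interval -2.07 to -0.29, limma adjusted p = 0.0270). Lhx1, the LIM homeodomain factor that places horizontal cells in their layer, was at 2.68 and 2.84 FPKM under PBS and at 0.35 and 0.88 under NMDA. The 2 PBS libraries nearly coincided while the 2 NMDA libraries lay further apart, below both, and the change was -2.11 (SE 0.678, interval -3.64 to -0.57, limma adjusted p = 0.0233).

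Prox1, a homeodomain factor required for horizontal cells to form, was at 24.23 and 23.87 FPKM under PBS and 5.57 and 6.56 FPKM under NMDA. The groups were far apart against their own spread, with means of 24.1 ± 0.255 and 6.07 ± 0.700 FPKM (SD, n = 2), and the log2 change was -1.97 (SE 0.104, interval -2.21 to -1.74, limma adjusted p = 4.85e-07). Calb1 was at 20.65 and 18.42 FPKM under PBS and 11.66 and 12.58 under NMDA, the smallest of the 5 changes at -0.68 (SE 0.130, interval -0.98 to -0.39, limma adjusted p = 0.00143). Leaving out WT PBS replicate 1, WT PBS replicate 2 or WT NMDA replicate 1 ended the calls of Onecut2 and Lhx1 (adjusted p 0.0742 to 0.0879 and 0.0855 to 0.152), while Onecut1, Calb1 and Prox1 were called without any 1 of the 12 libraries.

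**Figure D2:**
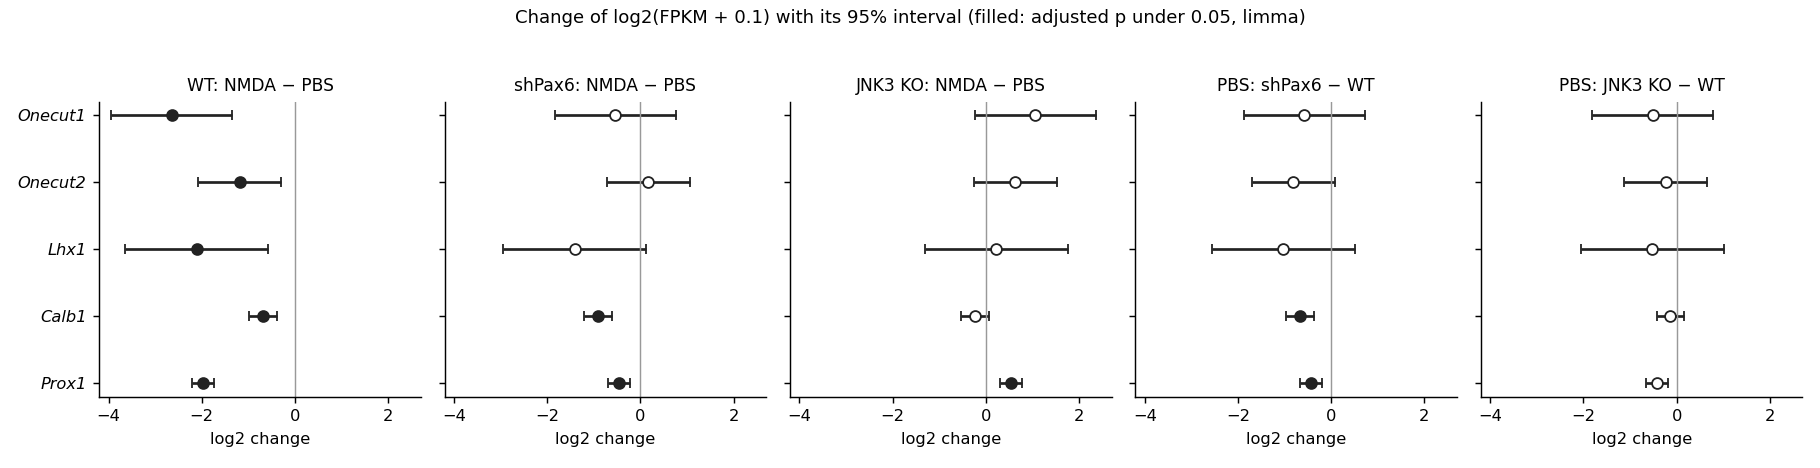
Changes of log2(FPKM + 0.1) of the 5 genes, as points with 95% intervals from limma, one panel for each comparison; filled points have an adjusted p under 0.05. After NMDA all 5 points are filled and below 0 in WT, Calb1 and Prox1 are filled and below 0 in shPax6, and only Prox1 is filled, above 0, in JNK3 KO.

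Since all 5 genes are long, the WT change was read against length. After NMDA in WT the median log2 change was 0.44 for genes under 1 kb of spliced length, 0.84 for 1 to 2 kb, 0.23 for 2 to 4 kb and -0.61 for the 8063 genes over 4 kb, of which 54.0% were called lower. In shPax6 and JNK3 KO retinas the medians of the same classes stayed between -0.15 and 0.20. Among genes over 4 kb, 2.47% had a lower change than Onecut1, 7.39% than Lhx1 and 9.12% than Prox1, but 28.8% than Onecut2 and 47.1% than Calb1. Calb1 thus lay near the middle of genes of its length class.

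With each library corrected for its trend on length, the change in WT was -2.55 for Onecut1, -2.02 for Lhx1, -1.21 for Prox1 and -0.41 for Calb1, all still called (limma, adjusted p = 0.0252 for Calb1). Onecut2, by far the longest of the 5, moved to 0.12 and lost its call and its direction (limma, adjusted p = 0.826), and quantile normalization also ended that call (-0.57, adjusted p = 0.227), while without the filter on low values it was at the threshold (limma adjusted p = 0.0509). Rescaling each library to TPM lowered the median change of all genes from -0.09 to -0.66 and gave the 5 genes changes of -3.32 for Onecut1, -2.70 for Lhx1, -2.55 for Prox1, -1.75 for Onecut2 and -1.26 for Calb1, each below that median. The share of WT calls that were higher was 43.5% as deposited, 21.4% with TPM and 50.8% with the length correction.

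**Figure D3:**
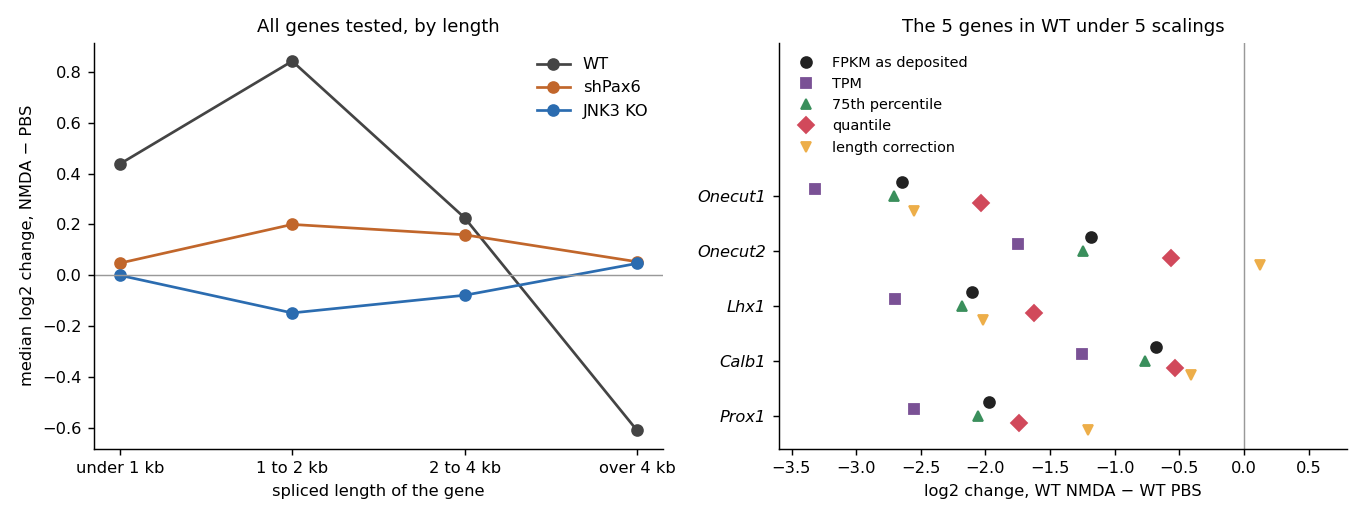
Left, the median log2 change after NMDA of all genes tested in 4 classes of spliced length, one line for each kind of retina. Right, the WT change of the 5 genes under 5 scalings. The WT line falls from 0.84 at 1 to 2 kb to -0.61 over 4 kb while the others stay near 0, and only Onecut2 crosses 0, at 0.12 with the length correction.

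In shPax6 retinas NMDA lowered 2 of the 5 genes, Calb1 and Prox1, against a background of 30.2% of genes called and 11.0% called lower. Calb1 was at 12.89 and 11.55 FPKM under PBS and 7.26 and 5.72 under NMDA, a change of -0.91 (limma adjusted p = 0.000833). Prox1 was at 17.99 and 17.52 FPKM under PBS and 12.81 and 13.01 under NMDA, a change of -0.46 (limma adjusted p = 0.00975). Neither gene overlapped between the groups, but with the spread taken from these 4 libraries alone both calls were lost (limma adjusted p = 0.0998 for Calb1 and 0.0887 for Prox1).

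The other three did not pass in shPax6. Onecut1 was at 0.34 and 1.27 FPKM under PBS and 0.31 and 0.60 under NMDA, with overlapping groups and a change of -0.54 (interval -1.84 to 0.76, limma adjusted p = 0.525). Onecut2 was at 0.34 and 0.52 FPKM against 0.46 and 0.52, a change of 0.17 (interval -0.72 to 1.06, limma adjusted p = 0.783). Lhx1 was at 1.63 and 1.03 FPKM under PBS and 0.16 and 0.96 under NMDA, without overlap, a change of -1.41 (interval -2.95 to 0.12, limma adjusted p = 0.151). The NMDA libraries of Lhx1 were wide apart, and without shPax6 NMDA replicate 2 its change was -2.43 and called (limma adjusted p = 0.0253).

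In JNK3 KO retinas the only gene of the 5 called after NMDA was Prox1, and it was higher, where 10.4% of all genes were called and 4.33% called higher. With 1 of the 4 JNK3 KO libraries left out the share of all genes called was 3.17% to 4.39%. Prox1 went from 18.74 and 17.29 FPKM under PBS to 27.48 and 24.84 FPKM under NMDA, a log2 change of 0.54 (interval 0.30 to 0.77, limma adjusted p = 0.0131). The groups did not overlap, yet leaving out any 1 of these 4 libraries ended the call (adjusted p 0.0526 to 0.102, change 0.46 to 0.61), as did taking the spread from these 4 libraries alone (limma adjusted p = 0.0518).

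Onecut1 had 0.73 and 0.69 FPKM with PBS and 1.56 and 1.63 FPKM with NMDA. Both NMDA values were above both PBS values, with a change of 1.07 whose interval spanned 0 (-0.23 to 2.37, limma adjusted p = 0.302), and it was called only with the spread of the 4 libraries alone (limma adjusted p = 0.0438). Onecut2 was likewise higher in both NMDA libraries, 1.08 and 1.14 FPKM against 0.60 and 0.77, without a call (0.63, limma adjusted p = 0.379). Onecut2 was tested only because its JNK3 KO NMDA mean (1.11 FPKM) passed the filter, and Onecut1 passed only through that group and WT PBS. The higher values of both genes in JNK3 KO NMDA are therefore descriptions. Lhx1, at 2.59 and 1.37 FPKM under PBS and 1.68 and 2.95 under NMDA, overlapped (0.23, limma adjusted p = 0.903), and Calb1, at 17.52 and 18.0 FPKM under PBS and 15.33 and 14.97 under NMDA, was not called (-0.23, interval -0.52 to 0.07, limma adjusted p = 0.331).

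The comparisons under PBS asked whether the genes differed before the injury, and they share the WT PBS libraries with the WT response. In shPax6 PBS retinas Calb1 and Prox1 were lower than in WT PBS, 2 of 5 genes where 16.5% of all genes were called and 11.2% called lower. Calb1 had a mean of 12.2 ± 0.948 FPKM against 19.5 ± 1.58 in WT (SD, n = 2), a difference of -0.67 (limma adjusted p = 0.00814). Prox1 had a mean of 17.8 ± 0.332 against 24.1 ± 0.255 FPKM, a difference of -0.44 (limma adjusted p = 0.0211). Neither gene overlapped between the groups. The length correction ended the Prox1 call (-0.35, limma adjusted p = 0.0584), the spread of these 4 libraries alone ended that of Calb1 (limma adjusted p = 0.0703), and leaving out 1 library ended that of Calb1 without WT PBS replicate 1 (adjusted p = 0.0733) and that of Prox1 without any 1 of the 4 (adjusted p 0.0616 to 0.108).

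Onecut1 (-0.58), Onecut2 (-0.82) and Lhx1 (-1.03) had no call in that comparison (limma adjusted p = 0.561, 0.206 and 0.356), although both shPax6 libraries of Onecut2 and Lhx1 lay below both WT libraries. Onecut2 was called there only with no intensity trend (limma adjusted p = 0.0388). Between JNK3 KO PBS and WT PBS 0 of the 5 genes were called by limma, where 1.51% of all genes were. Prox1 was the 1 gene with an unadjusted p under 0.05 there, with a difference of -0.42 (limma, unadjusted p = 0.00313, adjusted p = 0.0988) and no overlap, and Onecut1 (-0.52), Lhx1 (-0.52), Onecut2 (-0.24) and Calb1 (-0.13) had smaller or noisier differences.

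Whether the response to NMDA itself differed between kinds of retina was tested as the difference of log2 changes. Each of these contrasts shares its libraries with the others, so they are not independent of each other. WT against JNK3 KO gave 3 called genes of 5, where 51.4% of all genes were called and 27.9% with the WT change the lower: Onecut1 with a difference of -3.71 (limma adjusted p = 0.00411), Onecut2 with -1.81 (adjusted p = 0.0219) and Prox1 with -2.51 (adjusted p = 1.89e-06). Lhx1 (-2.33) and Calb1 (-0.45) missed the threshold (limma adjusted p = 0.0696 and 0.0654). With the length correction Onecut1 and Prox1 were still called at -3.64 and -1.65, and Onecut2 was not (-0.31, limma adjusted p = 0.696). Onecut1 passed the filter only through WT PBS and JNK3 KO NMDA, and high values in both make this difference more negative. Its value is therefore also a description, although it was called with no filter on low values. Onecut2 entered the test only because its JNK3 KO NMDA mean was over 1 FPKM, and that group is part of this difference, so its value is given as a description. It was also called by limma with no filter on low values, and was not called without JNK3 KO PBS replicate 1 or JNK3 KO NMDA replicate 2 (limma adjusted p = 0.0559 and 0.0613).

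WT against shPax6 gave 1 called gene, Prox1, with a difference of -1.52 (interval -1.85 to -1.19, limma adjusted p = 4.87e-05), where 49.7% of all genes were called and 31.4% with the WT change the lower. The length correction reduced this to -0.71 (limma adjusted p = 0.00571). Onecut1 (-2.11, limma adjusted p = 0.0566) and Onecut2 (-1.36, adjusted p = 0.0705) were just outside the threshold, and Lhx1 was at -0.69 (adjusted p = 0.577). Onecut1 was called without shPax6 PBS replicate 2 (-2.93) or shPax6 NMDA replicate 1 (-2.50), and Onecut2 without WT NMDA replicate 2 (-1.57), shPax6 PBS replicate 2 (-1.60), shPax6 NMDA replicate 1 (-1.43) or shPax6 NMDA replicate 2 (-1.28).

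For Calb1 the WT and shPax6 responses differed by 0.23 (limma adjusted p = 0.331), and this difference changed sign with the scaling, to -0.29 with TPM, and was called with the length correction (0.61, limma adjusted p = 0.0262) and quantile normalization (0.53, adjusted p = 0.0399). Between shPax6 and JNK3 KO, where 17.7% of all genes were called and 5.62% with the shPax6 change the lower, the responses of Prox1 (-0.99, limma adjusted p = 0.00238) and Calb1 (-0.68, adjusted p = 0.0332) differed. Onecut1 (-1.60), Lhx1 (-1.64) and Onecut2 (-0.46) did not pass (limma adjusted p = 0.216, 0.281 and 0.618). The Calb1 call was lost in 7 of the 12 fits that left out 1 library (adjusted p 0.0505 to 0.102) and with the spread of the groups compared (limma adjusted p = 0.0716), and Onecut1 was called without shPax6 PBS replicate 1 (-2.42, limma adjusted p = 0.0410).

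A rule adapted from thresholds of the study, an unadjusted p under 0.05 together with an absolute log2 change over 1 and a mean over 1 FPKM in a compared group, was applied to the same limma fit. It combines thresholds that the study used in different analyses and leaves out its variance-mean ratio, so its counts are not those of the study. In WT it took Onecut1, Lhx1 and Prox1 after NMDA, 3 of 5 genes where 35.3% of all genes passed it. It took 0 of 5 in shPax6 (15.2% of all genes), JNK3 KO (4.18%) and both comparisons under PBS (5.98% and 1.14%). For the differences of response it took Onecut1 and Prox1 between WT and shPax6 (34.5%), Onecut1, Onecut2, Lhx1 and Prox1 between WT and JNK3 KO (37.3%) and none of the 5 between shPax6 and JNK3 KO (12.8%). Onecut2 met the required mean only through JNK3 KO NMDA, and Onecut1 only through WT PBS and JNK3 KO NMDA. High values in these groups make the values of both genes here more negative, so their passing the rule is a description. The adjusted limma calls in these comparisons are given above.

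The order of the 6 groups was not the same for the 5 genes. Prox1 was highest in JNK3 KO NMDA (26.2 ± 1.87 FPKM, SD, n = 2), then WT PBS, then JNK3 KO PBS and shPax6 PBS (18.0 ± 1.03 and 17.8 ± 0.332 FPKM), which overlapped, then shPax6 NMDA (12.9 ± 0.141 FPKM), and lowest in WT NMDA. The filter admitted Onecut2 only through JNK3 KO NMDA, and Onecut1 only through that group and WT PBS. Both also had their highest values in JNK3 KO NMDA and their lowest mean in WT NMDA, at 0.085 FPKM for Onecut1 and 0.31 for Onecut2. Between these ends Onecut1 overlapped from WT PBS through shPax6 PBS to JNK3 KO PBS, and Onecut2 from shPax6 NMDA through shPax6 PBS to WT NMDA.

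Calb1 ran from WT PBS through JNK3 KO PBS (17.8 FPKM) and JNK3 KO NMDA (15.2 FPKM) to shPax6 PBS and WT NMDA, which overlapped at 12.2 and 12.1 FPKM, and was lowest in shPax6 NMDA at 6.49 ± 1.09 FPKM. Lhx1 overlapped between neighbours in the order over WT PBS, JNK3 KO NMDA, JNK3 KO PBS and shPax6 PBS, and stepped down to WT NMDA and shPax6 NMDA, at means of 0.615 and 0.56 FPKM. The lowest group was therefore WT NMDA for Prox1, Onecut1 and Onecut2, and shPax6 NMDA for Calb1 and Lhx1, where for Lhx1 the 2 lowest groups overlapped.

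Across the 12 libraries Prox1 followed Onecut1 most closely (Pearson r of 0.920 on the log2 scale), then came Onecut1 with Onecut2 (0.879), Onecut2 with Prox1 (0.839), Lhx1 with Prox1 (0.719) and Lhx1 with Calb1 (0.710). Calb1 had the lowest values, 0.371 with Onecut1, 0.46 with Prox1 and 0.479 with Onecut2. These are descriptions over 12 points that share 6 groups and the length trend of the WT NMDA libraries.

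Among 12635 candidate genes, those with a pattern most like Prox1 were Lin7a, Ate1 and Nyap2 (r of 0.989, 0.988 and 0.985), and 766 had an r above 0.9. For Calb1 Arhgap44 (0.986) and Kif5a (0.980) are named, with 235 above 0.9. For Onecut1 they were Spryd7, Zfp748 and Unkl (0.975, 0.972 and 0.964), with 152, for Onecut2 Gmps, Fnbp1 and Septin7 (0.969, 0.961 and 0.953), with 33, and for Lhx1 Nipsnap2, Chrna2 and Grip2 (0.927, 0.922 and 0.921), with 10. The 5 genes themselves were not candidates.

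The transcript values, estimated by RSEM, were used to see which transcripts carried the gene values. Prox1-202 (7913 bases) held 80% to 100% of the Prox1 gene value, at 5.57 to 23.98 FPKM, and fell by 1.81 after NMDA in WT (limma adjusted p = 8.51e-06 over 49940 transcripts, of which 35.2% were called). The shorter Prox1-201 (3285 bases) had 1.78 and 2.72 FPKM with PBS in WT and 0 and 0.03 with NMDA. In shPax6 the same transcript had 1.95 and 2.45 FPKM with PBS and 0.04 and 0 with NMDA (-4.27, limma adjusted p = 0.111), close to its WT change of -4.34 (adjusted p = 0.0407). In JNK3 KO the change of Prox1-202 was 0.52 (limma adjusted p = 0.0694) and in shPax6 -0.28 (adjusted p = 0.166), neither called, with 1.31% and 8.34% of transcripts called. Under PBS Prox1-202 was lower in shPax6 than in WT (-0.55, limma adjusted p = 0.0377), where 2.73% of transcripts were called.

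Calb1-201 (4222 bases) held 74.7% to 100% of the Calb1 value and fell by 0.56 in WT and 0.70 in shPax6 after NMDA (limma adjusted p = 0.0209 and 0.0259), with 0.05 in JNK3 KO. The retained-intron transcript Calb1-202 (701 bases) was listed at 0 in all 6 NMDA libraries. Under PBS it was at 2.96 and 1 FPKM in WT, 3.26 and 0 in shPax6 and 2.61 and 3.96 in JNK3 KO, so the 5 libraries that list it above 0 were all PBS libraries. The value of a transcript this short inside a longer one depends on how RSEM divides shared reads.

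Onecut1-201 held 56.4% to 100% of its gene and fell by 2.65 in WT (limma adjusted p = 0.0216), while Onecut1-202 was above 0 in only 2 libraries, 1 of shPax6 NMDA (0.25 FPKM) and 1 of JNK3 KO NMDA (0.68 FPKM). Onecut2-201 was the whole of the Onecut2 value. Lhx1 was divided most: the 3846-base Lhx1-201 had 1.1 and 1.17 FPKM with PBS in WT and 0.35 and 0.27 with NMDA (-1.60, limma adjusted p = 0.109), and the 382-base Lhx1-202 made up to 69.3% of the gene value in 1 library and was listed at 0 in 7. In WT PBS the short transcript was at 1.42 and 1.67 FPKM, above the long one, so the Lhx1 gene value rests in part on a transcript of 382 bases.

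**Figure D4:**
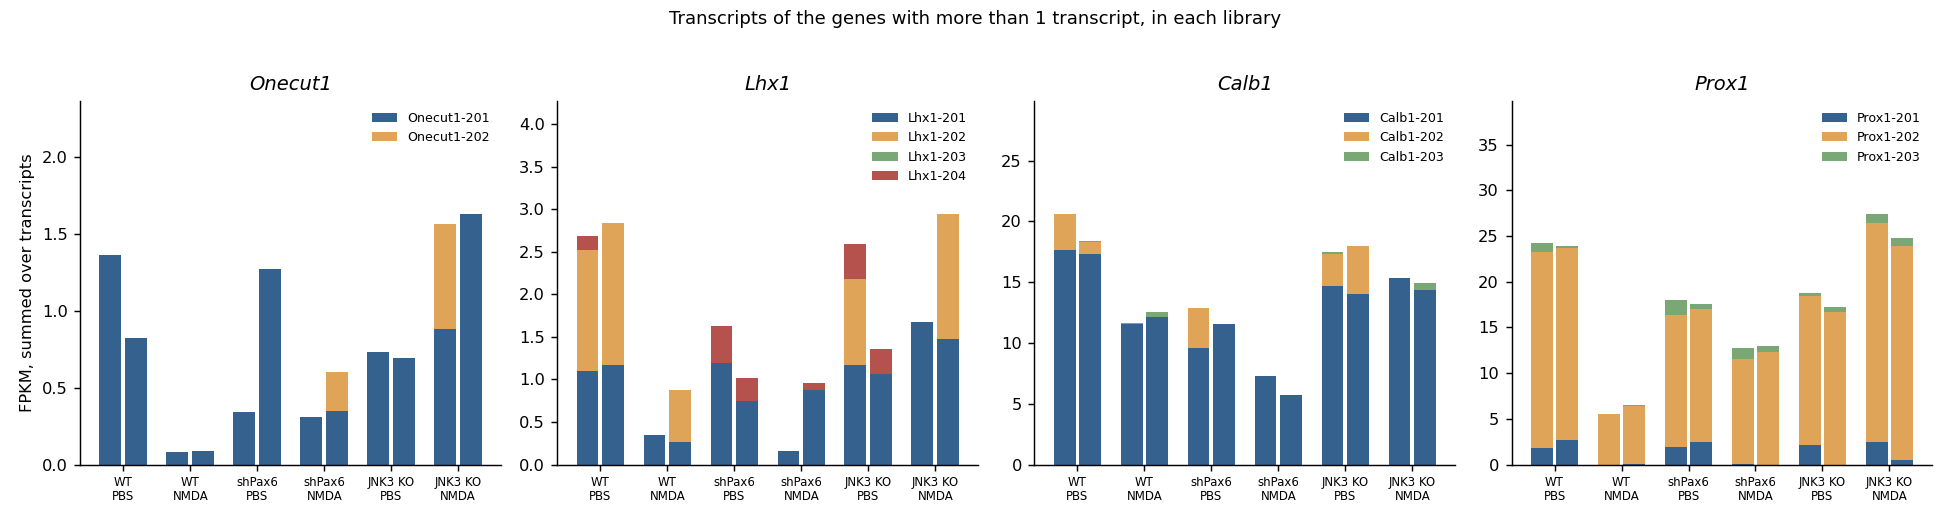
FPKM of the transcripts of Prox1, Calb1, Lhx1 and Onecut1 as stacked bars from 0, one bar for each of the 12 libraries. Prox1 is nearly all Prox1-202, the upper segment of Calb1 (Calb1-202) is present in 5 of the 6 PBS libraries and in no NMDA library, and Lhx1 is divided between Lhx1-201 and the 382-base Lhx1-202.

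A further 11 genes known from horizontal cells were listed, chosen with earlier results of these data known, and 9 of them passed the filter, while Ptf1a and Foxn4 did not. In WT 7 of the 9 fell after NMDA and 1 was called higher, with a median log2 change of -1.54 against -0.09 for all genes, of which 33.8% were called lower. The count of genes that fell was 5 with either other pseudocount, quantile normalization or no filter (11 tested), and the length correction gave 6 and a median of -0.89. The 7 were Gja10, a connexin of horizontal cell gap junctions (-1.89), Megf10 and Megf11, which space the cells in their mosaic (-1.82 and -1.62), Tfap2a and Tfap2b, AP-2 factors shared with amacrine cells (-1.54 and -1.83), Sall3 (-0.97) and Slc32a1, the vesicular inhibitory amino acid transporter (-0.61). Septin4 was called higher as deposited (0.63), but its change was 0.05 with TPM and -0.02 with quantile normalization, and Sall3 was at -0.31 and not called with the length correction. Gja10 was low, at 0.56 to 0.78 FPKM with PBS and 0 to 0.32 with NMDA (limma adjusted p = 0.0432). Quantile normalization ended its call (-1.41, limma adjusted p = 0.154). Onecut3 had a change of -0.74 and no call.

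In shPax6 retinas 7 of these 9 fell after NMDA, with a median of -1.45, where 11.0% of all genes were called lower, and with the spread of these 4 libraries alone 2 of the 9 were called. The exceptions were Onecut3 (-1.19) and Megf10 (0.43), which were not called. Tfap2b fell in both kinds of retina, to 9.85 to 11.83 FPKM in WT NMDA (37.43 to 39.87 with PBS) and to 9.69 to 10.23 FPKM in shPax6 NMDA (28.22 to 29.76 with PBS). Gja10 was listed at 0 in both shPax6 NMDA libraries, and at 0 in 1 of the WT NMDA libraries.

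In JNK3 KO retinas 2 of the 9 fell after NMDA, Slc32a1 (-0.61) and Septin4 (-0.34), where 6.10% of all genes were called lower. Megf10 rose (0.87, limma adjusted p = 0.0471), where 4.33% of all genes were called higher. That call was lost with the length correction, the replicate block or no filter. The median change of the 9 was 0.24, but it was -0.34 with the filter on the mean of 12 libraries (7 tested) and 0 with no filter (11 tested). Onecut3 passed the filter only through JNK3 KO NMDA (mean 1.375 FPKM). Gja10 passed only through JNK3 KO PBS and JNK3 KO NMDA (means 1.105 and 1.33 FPKM). High values in JNK3 KO retinas thus admitted both genes, so this median is a description. Tfap2b was at 33.51 to 34.57 FPKM in JNK3 KO NMDA, with a change of 0.25 (limma adjusted p = 0.154). The responses of WT and JNK3 KO differed for Megf10 (-2.69), Tfap2b (-2.08), Megf11 (-1.08) and Tfap2a (-1.07), more negative in WT, and for Septin4 (0.96). Each had an adjusted p under 0.05 by limma. In this contrast 51.4% of all genes were called, 27.9% with the WT change the lower, so a call by itself was common. With the length correction Megf11 moved to 0.0719 and lost its call and its direction (limma adjusted p = 0.845), and Tfap2a was not called (-0.78, adjusted p = 0.0536). Quantile normalization ended the calls of Tfap2a (-0.70, limma adjusted p = 0.0734) and Septin4 (0.25, adjusted p = 0.0894), while Megf10 and Tfap2b were called under all 5 scalings. For Slc32a1, a transporter shared with amacrine cells, that difference was 0.0035 as deposited (interval -0.26 to 0.26), but -0.59 with TPM and -0.36 with the length correction, both called (limma adjusted p = 0.00230 and 0.0349). Under PBS 4 of the 9 were lower in shPax6 than in WT, where 11.2% of all genes were, namely Tfap2a (-0.69), Slc32a1 (-0.54), Septin4 (-0.44) and Tfap2b (-0.41). With the spread of these libraries alone 1 was called, and Tfap2a was not called with the 75th percentile, quantile or length settings (limma adjusted p = 0.0568, 0.0793 and 0.0705). Of the 9, 0 were called between JNK3 KO and WT by limma. The 1 gene of the list with an unadjusted p under 0.05 between JNK3 KO and WT was Tfap2b (-0.43), which was called with quantile normalization (-0.51, limma adjusted p = 0.0490).

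**Figure D5:**
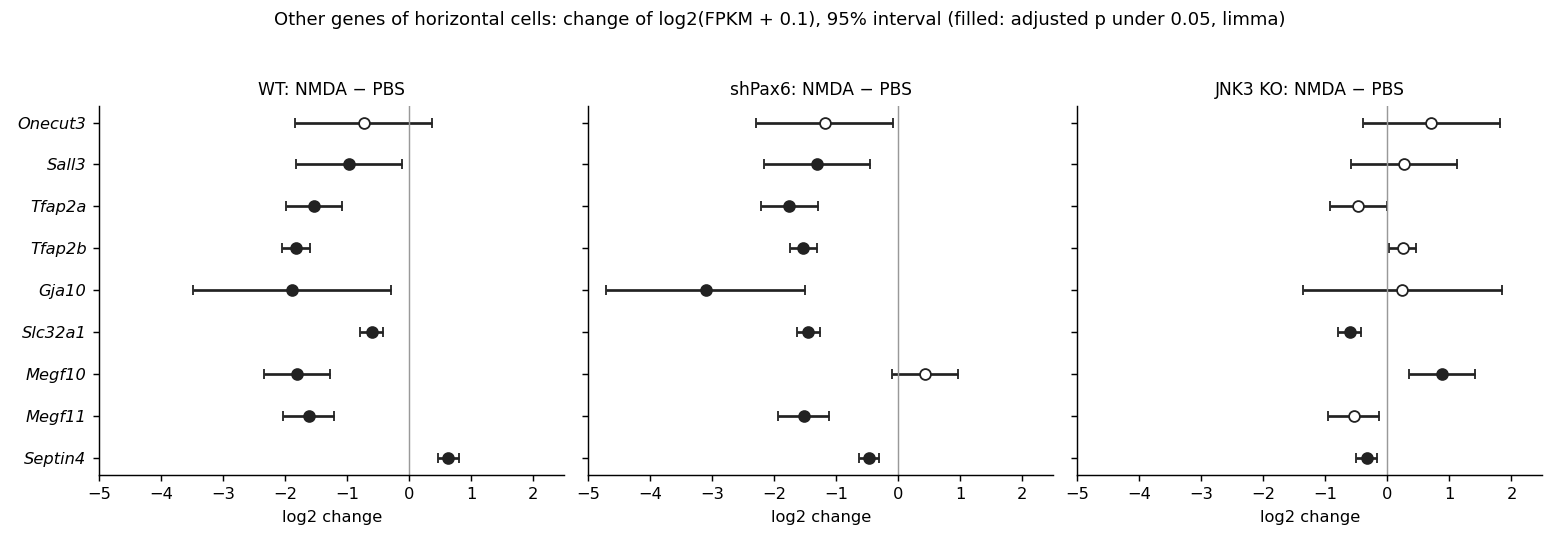
Change of log2(FPKM + 0.1) after NMDA of the 9 further horizontal cell genes that passed the filter, as points with 95% intervals from limma, in WT, shPax6 and JNK3 KO; filled points have an adjusted p under 0.05. Filled points below 0 number 7 in WT, 7 in shPax6 and 2 in JNK3 KO.

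Markers of the other cells that express these genes also moved. Of 15 retinal ganglion cell (RGC) genes tested, 12 fell after NMDA in WT, 11 in shPax6 and 10 in JNK3 KO, against 33.8%, 11.0% and 6.10% of all genes called lower, and 10 were lower in shPax6 PBS than in WT PBS, against 11.2% of all genes. In WT 1 of the 15 was called higher. Their summed level was 800.59 to 823.86 FPKM in WT PBS, 523.5 to 538.67 in WT NMDA, 284.85 to 287.59 in shPax6 PBS, 122.63 to 136.61 in shPax6 NMDA, 765.16 to 808.05 in JNK3 KO PBS and 258.57 to 258.95 in JNK3 KO NMDA. The median log2 change was -1.48 in WT, -2.29 in shPax6 and -1.56 in JNK3 KO. The sums are weighted to abundant genes, named after their values were seen. In WT Thy1 was at 142.02 to 144.87 FPKM with PBS and 135.95 to 153.62 with NMDA. Sncg was at 127.98 to 144.76 and then 112.21 to 115.5 FPKM, and Nefl at 160.25 to 162.46 and then 25.52 to 27.66.

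Of 13 amacrine genes tested, 10 fell after NMDA in WT, 13 in shPax6 and 5 in JNK3 KO, against the same shares of all genes. Their sum went from 663.94 to 670.59 FPKM in WT PBS to 275.68 to 278.02 in WT NMDA, from 436.59 to 454.96 in shPax6 PBS to 143.65 to 157.41 in shPax6 NMDA, and from 635.54 to 637.41 in JNK3 KO PBS to 336.72 to 341.18 in JNK3 KO NMDA. Of 12 bipolar genes 7 fell and 3 rose in WT after NMDA, and of 10 Müller glia genes 6 fell and 3 rose, with summed levels in WT NMDA of 1811.16 to 1828.87 and 1895.07 to 1909.78 FPKM against 844.16 to 851.54 and 1197.14 to 1234.22 in WT PBS. These higher sums were carried by a few genes, named after their values were seen: Gng13 (213.62 and 224.63 FPKM with PBS, 935.45 and 960.02 with NMDA) and Pcp2 (171.71 and 184.54, then 534.85 and 547.64) for bipolar cells, and Vim (338.96 and 367.97, then 1154.12 and 1169.43) and Apoe (219.48 and 226.46, then 367.27 and 395.69) for Müller glia.

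Microglial genes summed to 53.41 to 59.71 FPKM in WT PBS, 151.01 to 173.11 in shPax6 PBS and 421.56 to 429.81 in shPax6 NMDA, and cone genes to 647.36 to 672.91, 1221.61 to 1320.83 and 311.93 to 333.05 FPKM in the same groups. By limma 4 of 8 microglial genes were called higher in shPax6 than in WT under PBS, against 5.36% of all genes. With NMDA in shPax6 4 rose, against 19.1%. Of 9 cone genes 8 were higher under PBS, against 5.36%, and 9 fell with NMDA in shPax6, against 11.0%. The shPax6 NMDA microglial sum was mostly C1qa and C1qb, named after their values were seen (164.59 to 171.62 and 146.27 to 163.34 FPKM). In WT NMDA the microglial sum was 93.89 to 93.91 FPKM and the cone sum 1041.73 to 1104.82 FPKM. Of the 8 microglial genes 3 rose and 3 fell in WT (median -0.11), and of the 9 cone genes 2 rose and 4 fell (median -0.07). Of all genes 26.0% were called higher and 33.8% lower there. The higher cone sum was carried by 2 genes, named after their values were seen. Gngt2 went from 113.73 to 117.2 FPKM with PBS to 417.7 to 467.16 with NMDA, and Pde6h from 91.58 to 107.92 to 271.72 to 284.84. Lens genes summed to 74.44 to 242.29 FPKM and retinal pigment epithelium genes to 15.16 to 85.85 FPKM over the 12 libraries, the highest of both in WT NMDA. The part of these cells in the changes of Prox1, Calb1, Onecut1, Onecut2 and Lhx1 was not tested.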

How the data were processed

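RNA-seq of 12 libraries of mouse retina was used. The authors aligned paired reads of 101 bases to GRCm38.p6 with STAR 2.7.1a, and the FPKM values they deposited, 1 set by gene and 1 by transcript, came from RSEM 1.3.3, rounded to 0.01. The authors used edgeR 3.36.0 in R 4.1.0 for their own tests. FPKM hold no counts, so depth is unknown. Here log2(FPKM + 0.1) was fitted with limma 3.58.1 (lmFit, trended eBayes), run under R 4.3.3 with the package data.table (1.17.8), for the 16471 genes (49940 transcripts) with any group mean over 1 FPKM, as 6 group means with 6 residual degrees of freedom. A call was a Benjamini-Hochberg adjusted p under 0.05 over all genes or transcripts. Lengths came from GENCODE M21 for 99.83% of the genes tested. The code was tested on simulated data. Plots used matplotlib 3.10.9 under Python 3.11.15. The 5 genes and all lists were chosen with earlier results of these data known. Genes most alike were the 3 with the highest Pearson r to each of the 5 over the 12 libraries, among 12635 protein-coding genes with a mean above 1 FPKM. Some genes that a list or this rule selected are not reported here. Alternatives changed the pseudocount (1 or 0.5), the filter (none, or the mean of 12 libraries), the scaling (TPM, 75th percentile, quantile), the length trend (lowess, span 0.3), the spread (groups compared alone), the intensity trend, a replicate block, the call rule (adapted from the study) and the libraries (each left out).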

Additional observations from a re-analysis of the deposited data

Results flagged for a closer look

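The response to NMDA differed between kinds of retina by the interaction test for 6 combinations of gene and contrast (limma, adjusted over all genes tested). Between WT and JNK3 KO the difference of log2 changes was -3.71 for Onecut1, -1.81 for Onecut2 and -2.51 for Prox1, each the more negative in WT. Onecut2 was tested only because its JNK3 KO NMDA mean passed the filter, which is part of the difference, and with the length correction it was at -0.31 (limma adjusted p = 0.696). Onecut1 passed the filter only through WT PBS and JNK3 KO NMDA, which are also part of the difference. The values of Onecut1 and Onecut2 are therefore given as descriptions. Between WT and shPax6 the difference was -1.52 for Prox1. Between shPax6 and JNK3 KO it was -0.99 for Prox1 and -0.68 for Calb1, the more negative in shPax6. Prox1 was the gene whose 3 responses all differed from each other, at -1.97 in WT, -0.46 in shPax6 and 0.54 in JNK3 KO. The 3 contrasts share libraries, so these differences are not separate observations.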

How the results depend on the processing

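Values are the number of the 5 genes called unless stated. After NMDA in WT 3 in place of 5 were called with the filter on the mean of 12 libraries, which removes Onecut1 and Onecut2, and with the rule adapted from the study (unadjusted p under 0.05, absolute log2 change above 1, FPKM above 1), and 3 to 5 with 1 library left out. In shPax6 0 in place of 2 were called with the spread of the groups compared and with the adapted rule, and 2 to 3 with 1 library left out. In JNK3 KO the adapted rule gave 0 in place of 1, and a left-out library 0 to 1. Under PBS shPax6 against WT gave 1 in place of 2 with the length correction and the spread of the groups compared, 0 with the adapted rule and 0 to 2 with a left-out library. For differences of response, WT against shPax6 gave 3 in place of 1 with TPM and with no intensity trend, 2 with quantile normalization, the length correction and the adapted rule, and 1 to 3 with a left-out library. WT against JNK3 KO gave 1 in place of 3 with the filter on the mean, 5 with TPM and the spread of the groups compared, and 2 to 5 with a left-out library. And shPax6 against JNK3 KO gave 1 in place of 2 with the spread of the groups compared, 0 with the adapted rule and 1 to 2 with a left-out library. JNK3 KO against WT under PBS was 0 in every setting. For shPax6 against WT under PBS, Onecut2 was also called with no intensity trend (-0.82, limma adjusted p = 0.0388). After NMDA in WT, Onecut2 was not called with the length correction, quantile normalization or no filter (limma adjusted p = 0.826, 0.227 and 0.0509). For WT against JNK3 KO, Onecut2 was not called with the length correction (limma adjusted p = 0.696). There Lhx1 was also called with pseudocounts 1 and 0.5 (limma adjusted p = 0.0330 and 0.0407), and Calb1 with the 75th percentile (0.0321). The spread of the groups compared takes its 2 residual degrees of freedom, or 4 for a difference, from fewer libraries. For the other settings the cause was not tested.

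The direction turned for Onecut2 in WT with the length correction (0.12) and in shPax6 with quantile normalization (-0.22), and for Calb1 in the WT against shPax6 difference with TPM (-0.29). With 1 library left out the sign turned for Onecut2 in shPax6 (-0.0734 to 0.42), Onecut1 in shPax6 (-1.35 to 0.28), Lhx1 in JNK3 KO (-0.21 to 0.66), Onecut1 under PBS in shPax6 (-1.40 to 0.24) and Lhx1 in WT against shPax6 (-1.71 to 0.32). Among transcripts it turned for Lhx1-201 under PBS in shPax6 (-0.54 to 0.0634) and in JNK3 KO (-0.0898 to 0.0409), Onecut1-201 under PBS in shPax6 (-1.40 to 0.24), and Lhx1-201 (-1.50 to 0.41) and Calb1-201 (-0.0237 to 0.32) in WT against shPax6.

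With the spread of the groups compared, calls over all genes went from 4967 to 976 in shPax6 after NMDA. In the same setting they went from 2724 to 887 for shPax6 against WT under PBS, and from 249 to 12 for JNK3 KO against WT under PBS. With replicate number as a block the counts of the 5 genes called were the same in all 8 comparisons (5 after NMDA in WT). The numbers did not pair the samples, since deviations of same-numbered libraries correlated between -0.0973 and 0.0858 over pairs of groups. The depth is unknown, so the error of values below 1 FPKM rests on 2 libraries a group.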
